A study of Mus musculus with 4 samples.

Results

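In mouse hearts that had been exposed to carboplatin, macrophages from animals infused with angiotensin II and PE (AngII/PE) were set against macrophages from animals infused with saline. Carboplatin is a platinum drug that crosslinks DNA, and angiotensin II is a peptide that narrows arteries and raises blood pressure; the labels do not spell out PE. The cells were chosen by a rule. A barcode had to pass the submitters' filters (a mitochondrial share under 10%, fewer than 30000 unique molecular identifiers, UMIs, and more than 500 but under 7000 genes) and to hold at least 10 UMIs per 10000 from C1qa, C1qb and C1qc, the chains of complement C1q that tissue macrophages make. This gave 5128 macrophages with AngII/PE and 2399 with saline, 7527 of the 9153 barcodes that passed the filters in these libraries. Over all 4 libraries of the series the rule kept 13935 of 17312 such barcodes.

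The series has 4 groups, each of 5 adult mice of both sexes whose hearts were pooled into 1 library; the strain was not given in the sources used here. For 2 weeks, mice were injected into the peritoneum 2 times a week with PBS or with carboplatin at 45 mg/kg, and they then recovered for 4 weeks. A minipump under the skin then released angiotensin II at 1.5 mg/kg per day with PE at 50 mg/kg per day, or saline, until hearts were taken on day 7. Sorting by flow cytometry selected CD64+ CD45+ CD11b+ cells that were Ly6G negative and low in Ly6C, and 10000 cells per group were loaded for droplet sequencing from the 3' end. The groups used here are thus carboplatin then saline, carboplatin then AngII/PE, and, beside them, PBS then saline and PBS then AngII/PE. With 1 library per group there is no spread between replicates, so no test was possible; every interval below is a 95% interval that covers counting error only, and a difference between 2 libraries is not shown to be a difference between treatments.

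The heart holds resident macrophages, which clear debris and carry scavenger and lectin receptors, and macrophages that descend from blood monocytes. Macrophages of injured or lipid-loaded tissue often take on a lipid-associated programme with the receptor Trem2, the lipid carrier Apoe and lysosomal enzymes. Other macrophages carry MHC class II, the molecule that shows peptides to CD4 T cells. A raised blood pressure brings an inflammatory and fibrotic response in the heart in which all of these cells take part.

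The 10 macrophage markers, among them Adgre1, Csf1r and Cd68, were all above 10 CPM (counts per 1e6 UMIs of the gated cells) on average in the gated cells. With AngII/PE 3 of them were at least 1.5-fold higher, against 9.09% of all genes compared. None was 1.5-fold lower, against 8.1%, and their median log2 ratio of AngII/PE to saline was 0.44. Gated cells held a median of 13016 UMIs with saline and 12698.5 with AngII/PE after carboplatin, and the 4 libraries gave 30001652 to 64883614 UMIs in gated cells. The libraries differed in quality along the contrast: 43.2% of barcodes failed the mitochondrial limit with saline and 22.7% with AngII/PE, and the transcripts Gm42418 and AY036118, which share sequence with ribosomal RNA, took 1.69% and 0.245% of UMIs. The gate took 68.9% of filtered barcodes with saline and 90.5% with AngII/PE, and the C1q genes that define it were themselves higher with AngII/PE (median 94.7 and 152 UMIs per 10000 in gated cells). The carboplatin libraries shared 6 gated barcodes. Cells called female by Xist against Y-linked UMIs made up 52.7% and 51.1% of those called, and 5.92% and 8.48% of barcodes with any such UMI held both kinds. The part that these differences play in the results was not tested beyond the values given with them.

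With AngII/PE after carboplatin, the gated barcodes held more mRNA for lipid-handling, lysosomal and Ms4a family genes. They held less for MHC class II, for several genes of alternative activation and resident macrophages, and for a few heat shock proteins. Of 37 interferon-stimulated genes, 14 were at least 1.5-fold higher, against 9.09% of all genes. Some of these, such as Ifit1, were not found more often than in endothelial barcodes, as given below. A mean of 10 CPM or more over the carboplatin pair was reached by 8612 genes. With AngII/PE, 164 of them (1.9%) were higher by 2-fold or more and 252 (2.93%) lower by as much, 4.83% in either direction, and the median log2 ratio of AngII/PE to saline was 0.03. The interval of the ratio lay clear of 1 for all of the 164 and the 252. At these counts that follows from the 2-fold limit and the minimum of 10 CPM, so it adds no support. Summed over the 164 higher genes, the level went from 14348 CPM to 45582 CPM. Genes at the border had ratios of 2.002 and 1.996 on the higher side, and lay 2.0005-fold and 1.9992-fold lower on the other.

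Of the genes past 2-fold, 39.4% were higher. Scaling by TMM factors, which allow for a few abundant genes taking up the reads, shifted the median log2 ratio to 0.15 and gave 234 higher and 190 lower genes, so that 55.2% were higher. The counts were 154 and 246 with a mitochondrial limit of 5%, and 158 and 263 with a total that left out the transcripts linked to ribosomal RNA, mitochondrial genes and ribosomal protein genes. A gate on other macrophage markers that used no C1q gene gave 160 and 281. All 164 higher genes were also higher within female-called and within male-called cells, and 114 of them reached 2-fold in both. Among the lower genes, 251 of 252 were lower in both sexes and 179 at least 2-fold. The genes were chosen by sums that hold these same cells, so most of the agreement in direction was built in and adds no support. Cells of both sexes also came from the same pools of mice, so these splits are not replicates.

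**Figure D1:**
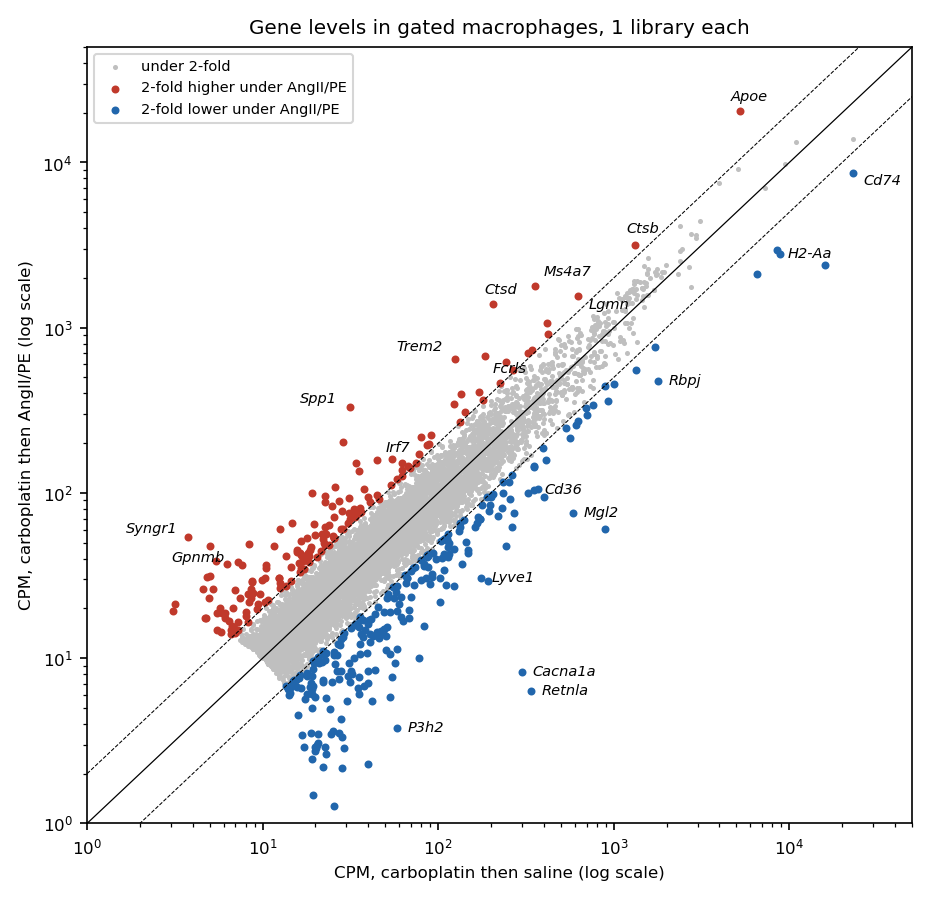
Level of each of 8612 genes in gated macrophages, in CPM on log axes, after carboplatin with saline (x) and with AngII/PE (y), 1 library each. The solid line marks equal levels and the dashed lines 2-fold; the 164 red genes lie above it and the 252 blue genes below, with Apoe and Cd74 the most abundant that are named.

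The 20 highest ratios included Syngr1, Spp1 and Des. Spp1 (chr5:104435118-104441050, mm10), which encodes the secreted matrix protein osteopontin, stood at 31.3 CPM after carboplatin with saline and 331 CPM with AngII/PE, against 23.7 CPM and 257 CPM in the PBS libraries. Both AngII/PE libraries lay far above both saline libraries, and after carboplatin the ratio was 10.6 (9.91 to 11.3). Spp1 was uneven among cells: the 1% of cells with most of it held 64.9% of its UMIs with saline and 31.7% with AngII/PE. After each cell was thinned to 2000 UMIs, 2.09% (1.53 to 2.79, Clopper-Pearson) of macrophages had a Spp1 UMI with saline and 23.3% (22.1 to 24.5) with AngII/PE. Endothelial barcodes, thinned alike, gave 0.435% and 3.00% as a measure of free RNA, and unthinned macrophages 9.30% and 48.2%. More cells carried the transcript, and the share exceeded that in the endothelial barcodes in each library.

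Syngr1, a synaptogyrin of vesicle membranes, had the highest ratio of all genes compared, 14.3 (11.8 to 17.4), from 3.77 CPM to 53.8 CPM after carboplatin and from 2.57 CPM to 55.1 CPM after PBS. Arhgap24, a GTPase-activating protein for Rac, stood at 28.7 CPM and 202 CPM, a ratio of 7.05 (6.58 to 7.56). Adam8, a membrane metalloprotease of leukocytes, went from 4.80 CPM to 30.8 CPM, and Thbs1, the matrix protein thrombospondin, from 3.17 CPM to 21.2 CPM. Cd300lf, an inhibitory receptor of myeloid cells that binds phospholipids, went from 5.03 CPM to 31.4 CPM. Gpx3, a secreted glutathione peroxidase, had a ratio of 6.30, Rapsn, known from the muscle synapse, 5.94, and the kinase gene Cdk18 4.69. Glis3, a zinc-finger transcription factor, had a ratio of 5.01. All of these were at least 2-fold higher after PBS as well.

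Des and Ankrd1 were also among the 20 highest and are best known from muscle. Des, the intermediate filament desmin, stood at 5.00 CPM and 47.8 CPM, a log2 ratio of 3.26, and Ankrd1 at 7.67 CPM and 36.7 CPM. Few cells supplied them: with AngII/PE the top 1% of cells held 55.9% of Des and 54.1% of Ankrd1 UMIs. A Des UMI was found in 0.929% of thinned macrophages with saline and 5.17% (4.56 to 5.82) with AngII/PE, beside 2.83% and 4.49% (2.34 to 7.72) of endothelial barcodes. For Ankrd1 the shares were 0.651% and 4.48% (3.92 to 5.09), beside 0.870% and 3.37% (1.55 to 6.30). Neither gene was thus detected above the endothelial share at this depth. Cardiomyocyte markers summed to 210 CPM in gated cells with saline and 144 CPM with AngII/PE, and mural markers to 34.2 CPM and 25.4 CPM; both lists were lower in sum with AngII/PE. Without barcodes that carried many UMIs of another cell type's markers, the log2 ratio was 2.64 for Des and 2.40 for Ankrd1.

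**Figure D2:**
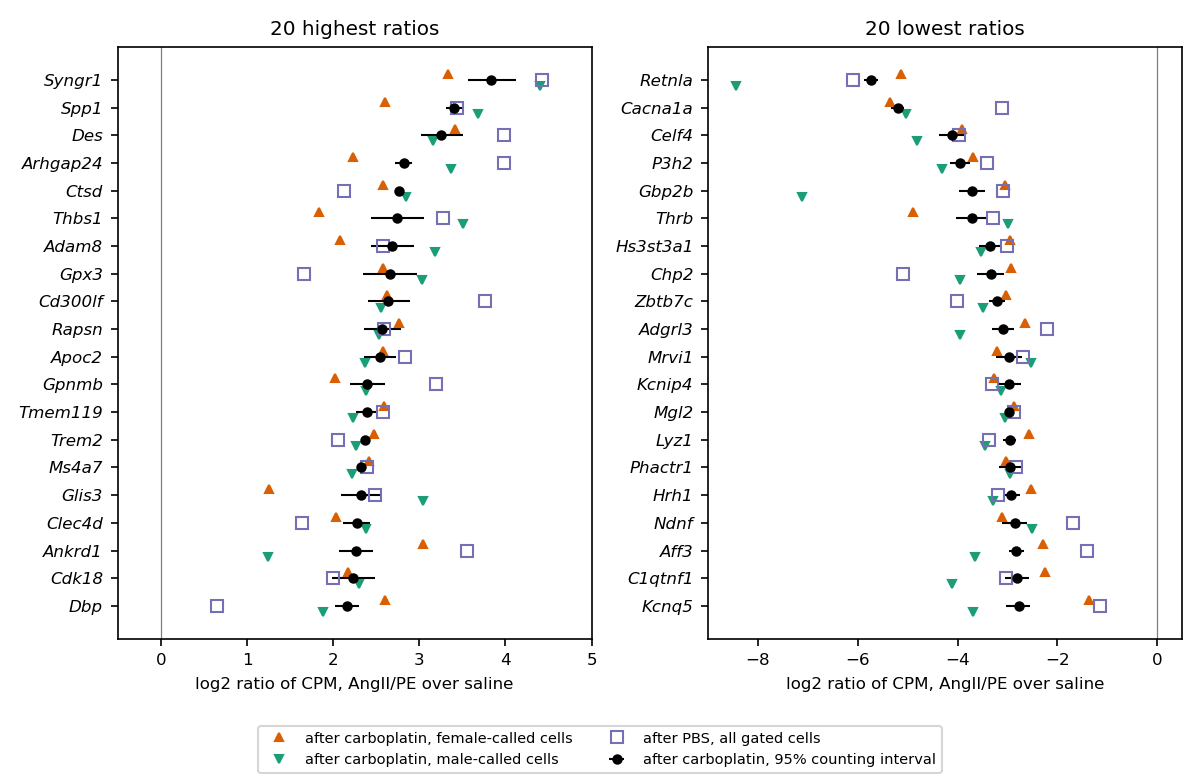
Log2 ratio of CPM, AngII/PE over saline, for the 20 highest and the 20 lowest genes by ratio after carboplatin. Black points carry 95% counting intervals, triangles show female-called and male-called cells after carboplatin and open squares the same ratio after PBS; every symbol lies on the same side of 0 as its black point, and Dbp, at 2.16 after carboplatin and 0.65 after PBS, is among the genes whose square lies well away from it.

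The gene lists here and below were chosen with earlier results of these data known. Counts of their members beside the share of all genes thus describe the lists and add no support. Lipid-associated macrophage genes had the highest median of the lists. Of 20 members compared, 13 were at least 1.5-fold higher, against 9.09% of all genes, and 11 at least 2-fold; the median log2 ratio was 1.17, against 0.03 for all genes and 0.86 for the list after PBS. Trem2 (chr17:48346401-48354147), a receptor for lipids and dead cells, stood at 125 CPM with saline and 642 CPM with AngII/PE after carboplatin, and at 130.0 CPM and 542 CPM after PBS. The 2 AngII/PE libraries were both above the 2 saline libraries, with a ratio of 5.16 (4.99 to 5.33) after carboplatin. The share of thinned macrophages with a Trem2 UMI was 18.2% (16.6 to 19.9) and 62.8% (61.4 to 64.2), beside 1.09% and 5.24% of endothelial barcodes.

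Apoe (chr7:19696109-19699188), the main apolipoprotein that macrophages secrete, was the most abundant of the higher genes. It stood at 5206 CPM and 20504 CPM after carboplatin, a ratio of 3.94 (3.92 to 3.96), and at 11027 CPM and 21196 CPM after PBS. The AngII/PE libraries were close to each other, and the carboplatin saline library was the lowest of the 4. In single cells the median was 25.7 Apoe UMIs per 10000 with saline and 180 with AngII/PE after carboplatin, and 84.3 and 179 after PBS. Apoc2, a cofactor of lipoprotein lipase, had a ratio of 5.82, and Gpnmb, a glycoprotein of lysosomes and the cell surface, one of 5.27. Gpnmb was found in few cells, 0.465% of thinned macrophages with saline and 4.27% with AngII/PE, and all of its saline UMIs lay in the top 1% of cells. Within cells that held a Ccr2 UMI its log2 ratio was -0.24. Cd36, a scavenger receptor for oxidised lipids, went the other way, from 351 CPM to 104 CPM, 3.39-fold lower (3.28 to 3.49). The list's median was 0.53 within cells that held a Ccr2 UMI and 1.26 within the others; Ccr2 is the receptor that marks monocyte-derived cells.

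Lysosomal genes digest what macrophages take up. Of 31 cathepsin and lysosome genes compared, 17 lay 1.5-fold higher or more, against 9.09% of all genes, and 1 lay 1.5-fold lower, against 8.1%, with a median log2 ratio of 0.64 after carboplatin and 0.58 after PBS. Ctsd (chr7:142375911-142388038), an aspartic protease of lysosomes, was at 204 CPM and 1390.3 CPM after carboplatin and 279 CPM and 1218 CPM after PBS. Its ratio of 6.81 (6.63 to 6.98) after carboplatin was the highest of this list. A Ctsd UMI was found in 22.9% and 75.7% of thinned macrophages, but also in 18.5% and 35.2% of endothelial barcodes. Ctsl, a cysteine protease, had a log2 ratio of 1.56, Grn, the precursor of granulins, 1.35, and Cd63, a tetraspanin of late endosomes, 1.35. Ctsf, another cysteine protease, was the member at least 1.5-fold lower, at 22.3 CPM and 13.6 CPM. Ctsd, Ctsl, Cd63, Cd68 and Lipa were also in the lipid-associated list, so the lists overlap.

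The promoters of Lgmn and Lamp1 are shown because both genes were higher and both carry the E box TCACGTG, the core of the element that the transcription factor TFEB and its relatives bind in lysosomal promoters. Lgmn, an asparaginyl protease, was at 628 CPM and 1556 CPM, and Lamp1, a membrane protein of lysosomes, at 611 CPM and 986 CPM. Sequences are the bases just before the start in RefSeq (GRCm38.p6), written 5' to 3' along the gene, with the E box on either strand in capitals: Lgmn at chr12:102439093-102439342 on the minus strand, from the second of 2 listed starts, and Lamp1 at chr8:13158911-13159160 on the plus strand.
Lgmn: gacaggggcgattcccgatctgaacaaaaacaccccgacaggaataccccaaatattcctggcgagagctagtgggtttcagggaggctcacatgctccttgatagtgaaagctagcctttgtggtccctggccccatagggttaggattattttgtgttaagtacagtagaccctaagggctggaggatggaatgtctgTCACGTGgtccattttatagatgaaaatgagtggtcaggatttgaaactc
Lamp1: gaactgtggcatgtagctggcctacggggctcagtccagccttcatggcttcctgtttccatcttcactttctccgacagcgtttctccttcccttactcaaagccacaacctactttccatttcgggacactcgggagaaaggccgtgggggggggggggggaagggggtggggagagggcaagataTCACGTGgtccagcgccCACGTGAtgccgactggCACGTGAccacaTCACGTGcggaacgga
The E box begins 50 bases before the start in Lgmn, and 62, 45, 28 and 16 bases before it in Lamp1. Among promoters of 250 bases it was in 6 of 26 of the list (23.1%) and in 3.58% of all 27025 genes in the table. Of the 6939 genes compared that had a promoter there, 6.53% held it, and of the 123 at least 2-fold higher 4.88% did. Tfeb itself had a log2 ratio of -0.18.

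The Ms4a family, membrane proteins with 4 passes that associate with immune receptors, moved as a block. All 7 members compared, of 10 listed, lay 1.5-fold higher or more, against 9.09% of all genes. Of these members 3 reached 2-fold, against 1.9% of all genes, and the median log2 ratio was 1.00. Ms4a7 (chr19:11321039-11336146) stood at 356 CPM and 1784 CPM after carboplatin, and at 301 CPM and 1576 CPM after PBS, a ratio of 5.01 (4.91 to 5.11) after carboplatin. It was found in 40.2% (38.1 to 42.3) of thinned macrophages with saline and 86.2% (85.2 to 87.2) with AngII/PE, beside 1.96% and 6.74% of endothelial barcodes. Ms4a14 was 2.15-fold and Ms4a4a 2.10-fold higher; members of the family are similar in sequence, and the handling of reads that match several members was not given in the sources used here.

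Genes known from microglia, the macrophages of the brain, were split. Of 16 compared, 7 were at least 1.5-fold higher, against 9.09% of all genes, and none 1.5-fold lower, with a median log2 ratio of 0.52. Tmem119, a membrane protein used to mark microglia, went from 19.0 CPM to 99.4 CPM, and the share of thinned macrophages with a UMI from 3.39% to 14.97%, while none of the thinned endothelial barcodes had one. Fcrls, an Fc receptor-like protein, went from 184 CPM to 672 CPM, and Olfml3, a secreted protein, from 24.7 CPM to 82.9 CPM. Cx3cr1, the fractalkine receptor, and P2ry12, a purine receptor, had log2 ratios of -0.15 and -0.16. Among Fc gamma receptors 4 of 7 were at least 1.5-fold higher and none 2-fold. Fcgr1, which encodes the CD64 used in the sort, was at 146 CPM and 266 CPM, a log2 ratio of 0.87, so the antigen the cells were sorted on moved along the contrast too.

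Pattern receptors were divided: of 30 inflammasome and pattern recognition genes, 9 lay 1.5-fold higher or more and 5 lay 1.5-fold lower or more, against 9.09% and 8.1% of all genes, with a median log2 ratio of -0.02 that was above 0 with TMM scaling. Clec4d, a lectin receptor for microbial glycolipids, was at 12.5 CPM and 60.4 CPM, a log2 ratio of 2.27, and Clec4e, its partner receptor, at 8.73 CPM and 28.8 CPM. Nlrp1b, a sensor that starts inflammasome assembly, was at 244 CPM and 47.9 CPM, 5.11-fold lower (4.90 to 5.33), and its neighbour Nlrp1a had a log2 ratio of -1.50. After PBS the log2 ratio of Nlrp1b was -0.71.

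Interferon-stimulated genes were higher in part. Of 37 compared, 14 were at least 1.5-fold higher, against 9.09% of all genes, and none 1.5-fold lower; 7 were at least 2-fold higher, against 1.9%, and the median log2 ratio was 0.29 after carboplatin and 0.06 after PBS. Female-called cells had a median of 0.44 and male-called cells one of 0.09, and it ranged from -0.02 to 0.44 over all settings tried. Ifit1, which binds foreign RNA, was at 10.4 CPM and 36.8 CPM. Irf7 (chr7:141262706-141266481), a transcription factor that drives interferon genes, was at 45.0 CPM and 158 CPM after carboplatin, a ratio of 3.52 (3.32 to 3.73), and at 29.3 CPM and 107 CPM after PBS. In thinned cells its share was 5.67% with saline, beside 6.96% of endothelial barcodes. With AngII/PE it was 19.5% (18.4 to 20.6), beside 14.2% (10.3 to 19.0), with intervals that overlapped. Ifit3b and Ifit3, which are close copies and may share reads, had log2 ratios of 1.63 and 1.44. By shares, Ifit1, Ifit3 and Ifit3b were not above the endothelial barcodes in either library. Endothelial cells may make these genes and Irf7 themselves, so the shares cannot tell free RNA from macrophage RNA. Ifit1 was found in 1.67% and 4.58% of thinned macrophages, beside 5.65% and 10.5% of endothelial barcodes. Ifit3 was found in 5.02% and 8.06%, beside 6.74% and 12.4%, and Ifit3b in 1.25% and 2.55%, beside 3.04% and 5.99%. Oas2, an RNA-sensing enzyme, was the lowest member at -0.50.

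The promoters of Ifit3 and Isg15 are shown because both genes were at least 2-fold higher and hold the interferon-stimulated response element (GAAA repeated after any 2 bases), a promoter element of genes that interferon induces. Isg15, a ubiquitin-like protein, was at 45.1 CPM and 96.7 CPM. The capitals mark the element on either strand: Ifit3 at chr19:34583279-34583528 on the plus strand and Isg15 at chr4:156200819-156201068 on the minus strand, from RefSeq (GRCm38.p6).
Ifit3: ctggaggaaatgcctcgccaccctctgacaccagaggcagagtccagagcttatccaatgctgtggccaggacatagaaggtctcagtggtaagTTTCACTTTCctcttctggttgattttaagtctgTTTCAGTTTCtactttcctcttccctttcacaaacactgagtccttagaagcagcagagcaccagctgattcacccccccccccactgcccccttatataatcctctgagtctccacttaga
Isg15: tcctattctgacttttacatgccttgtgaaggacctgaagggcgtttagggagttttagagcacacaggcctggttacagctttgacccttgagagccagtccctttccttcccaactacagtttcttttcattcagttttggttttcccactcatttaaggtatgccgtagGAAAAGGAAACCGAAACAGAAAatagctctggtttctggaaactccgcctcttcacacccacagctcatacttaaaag
Matches begin 156 and 122 bases before the start in Ifit3, and in Isg15 3 overlapping matches begin 78, 72 and 66 bases before it. The element was in 15 of 28 promoters of the list (53.6%) and in 3.46% of all genes. Among the genes compared it was in 3.67%. It was in 8.13% of promoters of the genes at least 2-fold higher and in 7.82% of those at least 2-fold lower.

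MHC class II genes were lower with AngII/PE. Of 13 genes of class II presentation compared, 10 lay at least 1.5-fold lower, against 8.1% of all genes, and 8 of these reached 2-fold; none was 1.5-fold higher. The median log2 ratio was -1.24 after carboplatin and -0.81 after PBS, and summed over the list the level was 51627 CPM with saline and 20503 CPM with AngII/PE. H2-Eb1, a beta chain, was at 8876 CPM and 2776 CPM after carboplatin, 3.20-fold lower (3.18 to 3.22), and at 6651 CPM and 3362 CPM after PBS. H2-Ab1, the other beta chain, was at 6581 CPM and 2108 CPM. H2-Ob, a chain of the peptide-loading regulator H2-O, was 4.00-fold lower, and Ctss, the protease that trims the invariant chain, was the highest member with a log2 ratio of 0.53. Both saline libraries lay above both AngII/PE libraries for H2-Eb1, and the carboplatin saline library was the highest of the 4.

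Ciita (chr16:10480059-10528418), the coactivator that switches class II genes on, was at 269 CPM and 75.9 CPM after carboplatin, 3.55-fold lower (3.43 to 3.68), and at 175 CPM and 96.3 CPM after PBS. A Ciita UMI was found in 39.5% (37.4 to 41.6) of thinned macrophages with saline and 13.5% (12.5 to 14.5) with AngII/PE, beside 3.26% and 1.87% of endothelial barcodes. For H2-Ab1 the shares were 95.9% and 58.1%, beside 31.7% and 18.4%. Female-called cells had a list median of -0.91 and male-called cells one of -1.72. Genes of MHC class I presentation did not follow. Of 19 compared, none was 1.5-fold higher and 2 were 1.5-fold lower, against 9.09% and 8.1% of all genes, with a median of 0.01.

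In single cells, the summed class II level (H2-Aa, H2-Ab1, H2-Eb1 and Cd74) had a median of 401 UMIs per 10000 with saline and 37.9 with AngII/PE after carboplatin, and 294 and 58.8 after PBS. The spread was wide with AngII/PE after carboplatin, where the 10th and 90th percentiles of cells were 3.11 and 493, against 64.8 and 722 with saline. Cells high in class II were thus still present with AngII/PE, beside a large number with very little. In that library thinned cells with a Ccr2 UMI had a median of 143 and those without one 22.4, whereas with saline the medians were 504 and 408. Cells with a Spp1 UMI had 12.5 and those without 52.7; for Trem2 the values were 26.9 and 64.9. Cells with a Ccr2 UMI made up 32.6% of thinned macrophages with saline and 29.1% with AngII/PE. In the summed libraries fewer cells of a kind and less RNA per cell cannot be told apart. The list's median was -0.98 within cells that held a Ccr2 UMI and -1.45 within the others.

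**Figure D3:**
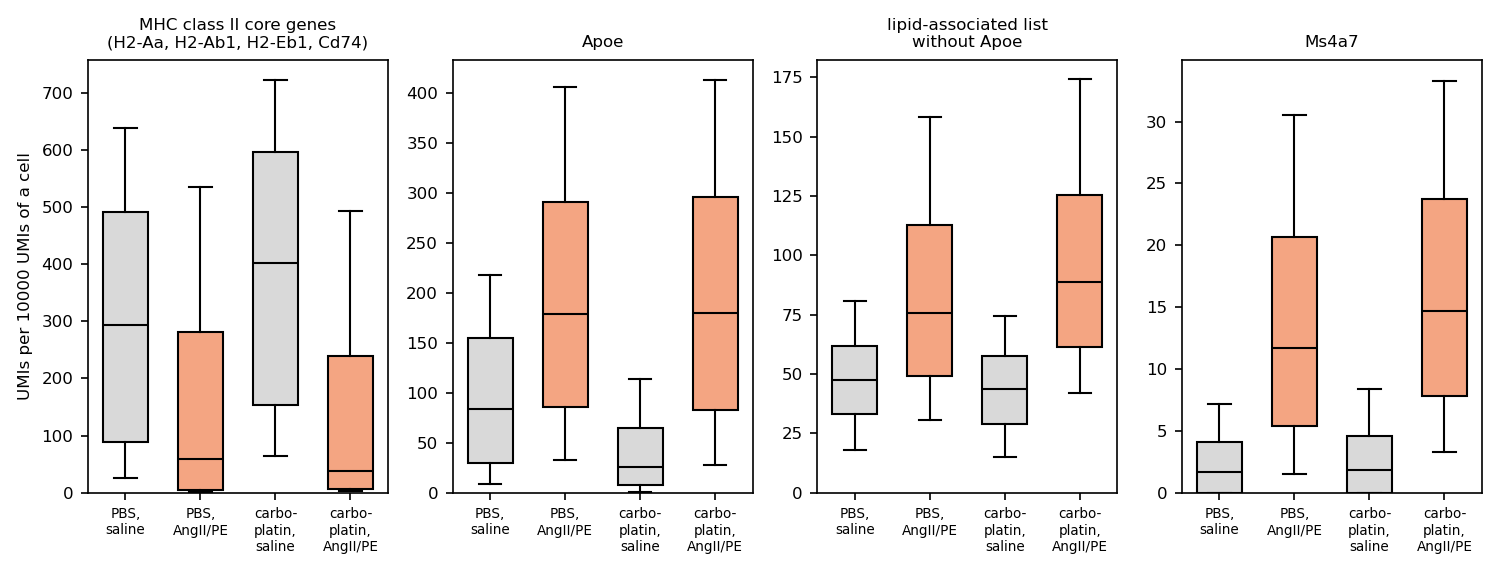
UMIs per 10000 in single gated macrophages, for the MHC class II core genes, Apoe, the other lipid-associated genes and Ms4a7, in the 4 libraries. Boxes span the quartiles with the median as a line and whiskers run from the 10th to the 90th percentile; after carboplatin the class II median is 401 with saline and 37.9 with AngII/PE, and that of Ms4a7 1.86 and 14.7.

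The promoters of H2-Aa and H2-Eb1 are shown as those of the 2 compared class II presentation genes that hold the Y box CTGATTGG, the site of the factor NF-Y in class II promoters. H2-Aa, the alpha chain that pairs with H2-Ab1, was at 8554 CPM and 2963 CPM. Capitals mark the Y box: H2-Aa at chr17:34287824-34288073 on the minus strand, and H2-Eb1 at chr17:34305721-34305866 on the plus strand, 146 bases that lie outside annotated exons, both from RefSeq (GRCm38.p6).
H2-Aa: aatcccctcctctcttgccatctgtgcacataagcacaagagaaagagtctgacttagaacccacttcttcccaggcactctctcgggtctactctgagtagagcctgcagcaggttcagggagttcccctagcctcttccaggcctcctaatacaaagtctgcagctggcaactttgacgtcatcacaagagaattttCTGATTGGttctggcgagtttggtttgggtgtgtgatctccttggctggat
H2-Eb1: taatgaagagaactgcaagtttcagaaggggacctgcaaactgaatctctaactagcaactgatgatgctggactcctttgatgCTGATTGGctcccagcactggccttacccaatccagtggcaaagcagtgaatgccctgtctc
The Y box begins 51 bases before the start in H2-Aa and 62 in H2-Eb1. It was in 2 of 7 class II presentation promoters (28.6%) and in 4.43% of all genes. Among the genes compared it was in 6.05%, a share close to the 6.15% of those at least 2-fold lower; among those at least 2-fold higher it was in 3.25%.

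Genes of alternative activation, the state that interleukin 4 induces, held the lowest ratio of all. Retnla (chr16:48842551-48844461), which encodes a secreted resistin-like protein, was at 337 CPM with saline and 6.37 CPM with AngII/PE after carboplatin, and at 449 CPM and 6.53 CPM after PBS. The 2 saline libraries were high and the 2 AngII/PE libraries low, and after carboplatin the gene was 52.97-fold lower (48.0 to 58.6). Retnla came from a minority of cells: 7.43% (6.36 to 8.63) of thinned macrophages had a UMI with saline and 0.344% (0.201 to 0.551) with AngII/PE, beside 2.17% and 0% of endothelial barcodes, the latter allowing up to 1.12%. With AngII/PE, 235 of its 413 UMIs lay in 1 cell. Mgl2 (chr11:70130329-70137550), a galactose-binding lectin, was at 589.8 CPM and 75.6 CPM after carboplatin, 7.80-fold lower (7.56 to 8.05), and at 613 CPM and 83.5 CPM after PBS. Its share of thinned macrophages went from 50.8% to 7.05%, so the difference extended over a large part of the cells.

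Other members differed in direction. Of 13 alternative activation genes compared, 6 were at least 1.5-fold lower and 2 at least 1.5-fold higher, against 8.1% and 9.09% of all genes, and the median log2 ratio was -0.54. Irf4, a transcription factor of this state, was at 31.8 CPM and 8.40 CPM. Ccl24, a chemokine for eosinophils, was at 58.6 CPM and 19.3 CPM after carboplatin and at 177 CPM and 14.7 CPM after PBS. Trem2, which is in this list as well, was higher. Tgm2, a transglutaminase, was also higher, at 17.0 CPM and 39.9 CPM.

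The Retnla promoter is shown as that of the gene with the lowest ratio, and as the only one of 9 in the alternative activation list with the STAT6 site (TTC and GAA with any 4 bases between), which 6.76% of all genes hold. The window is chr16:48842359-48842550 on the plus strand (RefSeq, GRCm38.p6); the last 58 bases before the start lie in an annotated exon and are left out. Capitals mark the site, which begins 145 bases before the start.
Retnla: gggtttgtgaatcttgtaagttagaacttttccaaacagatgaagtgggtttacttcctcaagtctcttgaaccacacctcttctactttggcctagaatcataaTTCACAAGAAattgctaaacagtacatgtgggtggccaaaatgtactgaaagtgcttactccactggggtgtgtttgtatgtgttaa
Among the genes compared the site was in 5.68% of promoters, among those at least 2-fold lower in 11.2%, and among those at least 2-fold higher in 7.32%.

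Resident macrophage genes were lower in part. Of 16 compared, 6 were at least 1.5-fold lower and 2 at least 1.5-fold higher, against the same shares of all genes, with a median log2 ratio of -0.50 after carboplatin and -1.36 after PBS. Lyve1 (chr7:110850607-110863239), a hyaluronan receptor of resident macrophages, was at 176 CPM and 30.8 CPM after carboplatin, 5.71-fold lower (5.42 to 6.02), and at 319.7 CPM and 26.1 CPM after PBS. Its share of thinned macrophages was 15.1% and 2.77%, beside 1.74% and 0.749% of endothelial barcodes. Clec10a, a lectin close to Mgl2, was at 53.2 CPM and 19.1 CPM, and Cbr2, a carbonyl reductase, at 252 CPM and 117 CPM. Colec12, a collectin scavenger receptor, had a log2 ratio of -1.24. The growth factor gene Igf1 and the transcription factor gene Maf had log2 ratios of 0.01 and -0.05. Lists of transcription factors of macrophage identity and of monocyte-derived macrophage genes had medians of -0.05 and 0.06, with 3 higher and 6 lower of 31, and 3 higher and 1 lower of 10, at 1.5-fold.

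The other genes with the lowest ratios were mostly of moderate level and outside the lists. Cacna1a, a voltage-gated calcium channel subunit best known from neurons, was at 302 CPM and 8.21 CPM after carboplatin, 36.7-fold lower (33.6 to 40.1), and at 315 CPM and 36.5 CPM after PBS. It was found in 43.5% (41.4 to 45.6) of thinned macrophages with saline and 1.50% (1.18 to 1.88) with AngII/PE, beside 1.96% and 0% of endothelial barcodes, the latter allowing up to 1.12%. Celf4, an RNA-binding protein, was 17.3-fold lower, P3h2, a collagen prolyl hydroxylase, 15.4-fold, and Hs3st3a1, a heparan sulfate sulfotransferase, 10.1-fold. Thrb, the thyroid hormone receptor beta, was 12.998-fold and Hrh1, the histamine H1 receptor, 7.58-fold lower. With AngII/PE, 96.9% of Thrb UMIs came from the top 1% of cells.

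Gbp2b, an interferon-induced GTPase with the close relative Gbp2, was at 28.2 CPM and 2.16 CPM. Gbp2 was at 51.4 CPM and 35.1 CPM; reads could be split between the 2. Lyz1, a lysozyme nearly identical to Lyz2, went from 77.4 CPM to 10.0 CPM, which is uncertain for the same reason. Chp2, a calcium-binding protein, was 10.1-fold and Zbtb7c, a zinc-finger protein, 9.24-fold lower. The potassium channel genes Kcnip4 and Kcnq5 were 7.83-fold and 6.86-fold lower, the adhesion receptor gene Adgrl3 8.47-fold and the complement-like C1qtnf1 7.01-fold. Few cells supplied most of the saline UMIs of Kcnip4 and Kcnq5. After carboplatin with saline the top 1% of cells held 92.2% and 69.6% of them, and 1.53% and 1.81% of thinned macrophages had a UMI. By sex, the log2 ratio of Kcnq5 was -1.36 (female) and -3.70 (male), and that of Kcnip4 -3.26 and -3.12. Mrvi1, Phactr1 and the secreted Ndnf had log2 ratios of -2.97, -2.95 and -2.86. Phactr1 was found in 5.30% and 0.729% of thinned macrophages, beside 19.1% and 13.5% of endothelial barcodes. For C1qtnf1 the shares were 3.90% and 0.486%, beside 4.35% and 5.24%. Neither Phactr1 nor C1qtnf1 was thus found more often than in endothelial barcodes in either library. All of the 20 lowest were at least 2-fold lower after PBS too.

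Aff3, a transcriptional regulator abundant in B cells, was at 54.5 CPM and 7.72 CPM. B cell markers in the gated cells moved the same way in part. Of 5 compared, 3 were at least 2-fold lower, against 2.93% of all genes. The others had log2 ratios of -0.41 (Ighm) and 0.15 (Cd79b). The median log2 ratio was -1.74 and the summed level 416 CPM with saline and 275 CPM with AngII/PE. Without barcodes rich in another cell type's markers the log2 ratio of Aff3 was -2.74, against -2.82 with them. Bank1, another gene best known from B cells, was at 401 CPM and 93.98 CPM. Classical monocyte markers summed to 1747 CPM and 1111 CPM, and patrolling monocyte markers to 213 CPM and 151 CPM. Endothelial markers were at 226 CPM and 247 CPM, fibroblast markers at 235 CPM and 332 CPM, and neutrophil markers at 67.8 CPM and 116 CPM. Their part in the results was not tested.

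Among secreted and matrix genes, counts were read against all genes, of which at 1.5-fold 9.09% were higher and 8.1% lower. Of 11 CC chemokines 4 were past that fold upward and 2 downward, Ccl5 at 18.7 CPM and 44.9 CPM and Ccl3 at 225 CPM and 464 CPM. Both attract leukocytes. Of 9 chemokine receptors 4 were 1.5-fold higher and none 1.5-fold lower, with Cxcr4, the receptor for Cxcl12, at 31.1 CPM and 75.2 CPM. In the matrix list 7 of 15 were at least 2-fold higher, against 1.9% of all genes, while 1 was at least 1.5-fold lower. Among the 7 were Spp1, Thbs1 and the collagen gene Col3a1 (4.73 CPM and 17.5 CPM). Col3a1 is also a fibroblast marker, and fibroblast markers were higher in sum, as given above. Among metalloproteinases and their inhibitors the membrane-bound Mmp14 was at 22.6 CPM and 88.0 CPM. Mmp13, a collagenase, was at 82.9 CPM and 15.6 CPM, and Mmp12, an elastase, at 103 CPM and 30.4 CPM after carboplatin but at 57.5 CPM and 52.9 CPM after PBS. Gdf15, a stress-induced member of the TGF-beta superfamily, was at 11.6 CPM and 47.7 CPM.

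**Figure D4:**
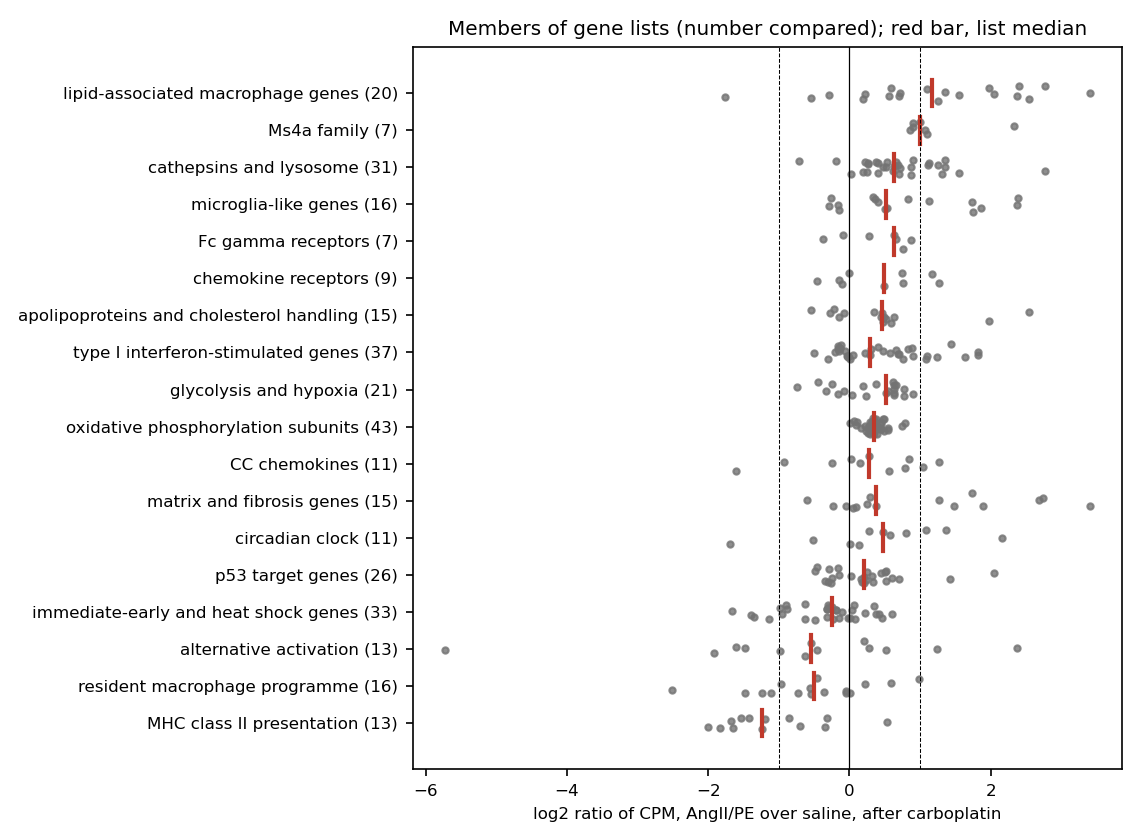
Log2 ratio of CPM, AngII/PE over saline after carboplatin, for members of 18 gene lists (grey points, number compared in brackets), with the list's median as a red bar and dashed lines at 2-fold. Lipid-associated genes have the highest median, 1.17, and MHC class II genes the lowest, -1.24; Retnla is the point at -5.73.

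The 2 metabolic lists had medians above 0. All 43 oxidative phosphorylation subunits compared had a log2 ratio above 0, from 0.01 to 0.79, with a median of 0.35. The median of all genes was itself above 0, at 0.03, or 0.15 with TMM factors. Of the 43 subunits 2 were at least 1.5-fold higher, against 9.09% of all genes. Over the settings tried the list's median ran from 0.30 to 0.47. Of 21 glycolysis and hypoxia genes 9 lay 1.5-fold higher or more and 1 lay 1.5-fold lower (9.09% and 8.1% of all genes), from -0.75 to 0.90 on the log2 scale, with a median of 0.52. Pgam1, a glycolytic mutase, was at 79.5 CPM and 148 CPM. S phase genes had a median of 0.26 and G2/M genes one of 0.27, and cells with cycling genes made up 10.96% of macrophages with saline and 13.9% with AngII/PE.

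Hormone-responsive and clock genes held large single differences. Fkbp5, a cochaperone that glucocorticoids induce, was at 34.2 CPM and 152 CPM after carboplatin, 4.45-fold higher (4.17 to 4.75), and at 62.2 CPM and 199.9 CPM after PBS. Ddit4, a stress-induced inhibitor of mTOR that glucocorticoids also raise, had a log2 ratio of 1.43. Nr3c2, the mineralocorticoid receptor, was at 24.2 CPM and 4.92 CPM, and Klf2, a transcription factor of quiescence, at 566 CPM and 215 CPM. The glucocorticoid list as a whole had 5 higher and 4 lower of 20 at 1.5-fold, against 9.09% and 8.1% of all genes. Among 11 clock genes Dbp, a clock output factor, was at 14.7 CPM and 65.7 CPM and Nr1d1, a repressor of the loop, at 6.47 CPM and 16.8 CPM. Arntl, the activator of the loop, was at 48.8 CPM and 15.1 CPM. After PBS the levels of Dbp were 21.8 CPM and 34.3 CPM. Several of these genes were found more often in endothelial barcodes than in macrophages in both libraries. For Dbp the shares of thinned macrophages were 2.88% and 10.6%, beside 15.7% and 27.3% of endothelial barcodes, and for Nr1d1 0.976% and 3.38%, beside 11.96% and 10.1%. Nr3c2 was found in 5.02% and 1.09%, beside 23.3% and 11.6%, and Ddit4 in 1.21% and 2.45%, beside 4.13% and 21.0%. Fkbp5 was found in 7.48% (6.41 to 8.68) of macrophages with saline, beside 5.43% (3.55 to 7.92), with intervals that overlapped. With AngII/PE it was above the endothelial barcodes, in 26.1% (24.8 to 27.3), beside 14.2% (10.3 to 19.0). The hour at which hearts were taken was not given in the sources used here, so time of day and treatment cannot be told apart.

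Some heat shock and immediate-early genes, which tissue dissociation can raise, were lower. Of 33 compared, 10 were at least 1.5-fold lower and 1 at least 1.5-fold higher, against 8.1% and 9.09% of all genes, and the median log2 ratio was -0.25. Hsph1, a chaperone, was at 108 CPM and 34.1 CPM. Hspa1b and Hspa1a, near-identical copies of the same chaperone, had log2 ratios of -1.35 and -1.14. This ran beside the larger loss of saline barcodes to the mitochondrial limit, and its part was not tested. Among p53 target genes, which DNA damage induces, 4 of 26 were at least 1.5-fold higher, against 9.09% of all genes, and none 1.5-fold lower. In the iron list Tfrc, the transferrin receptor, was at 30.7 CPM and 7.81 CPM and Cp, the ferroxidase ceruloplasmin, at 42.6 CPM and 13.6 CPM. Alox5, the enzyme that starts leukotriene synthesis, was at 123 CPM and 46.1 CPM. Among 11 genes of angiotensin and adrenergic signalling, Rgs1, which shuts off G protein signals, was at 122 CPM and 344 CPM; the other members except Nr3c2 were within 1.5-fold.

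The contrast after PBS used 2 other libraries and shared no sample with the one after carboplatin. Female-called cells made up 48.7% of those called with saline and 30.3% with AngII/PE after PBS. The part that this plays in the comparison of the 2 contrasts was not tested. There, 238 of 8622 genes (2.76%) were 2-fold higher or more, and 317 (3.68%) were 2-fold lower or more. Of the 164 genes higher after carboplatin, 163 were higher after PBS too and 130 at least 2-fold; of the 252 lower genes, 250 were lower and 173 at least 2-fold. With each pair's own minimum of 10 CPM, 126 genes were 2-fold higher in both, 76.8% of the list after carboplatin and 52.9% of that after PBS. For lower genes the overlap was 166, or 65.9% and 52.4%.

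Several resident and scavenger genes lay less far below saline after carboplatin than after PBS. They were picked for the largest differences between the 2 contrasts. Their level with saline was also lower after carboplatin than after PBS, and the part that this plays was not tested. Cd163, the haemoglobin scavenger receptor, was at 44.2 CPM and 30.3 CPM after carboplatin, a log2 ratio of -0.54, and at 342 CPM and 62.5 CPM after PBS, one of -2.45. Colec12 had log2 ratios of -1.24 and -3.40, and Ccl24 of -1.60 and -3.59. Cd207, a lectin best known from Langerhans cells, had -2.20 and -8.30. After carboplatin the top 1% of cells held 96.2% of its UMIs with saline and all of them with AngII/PE. In that AngII/PE library 1 cell alone held 361 Cd207 UMIs, most of the total, and the PBS AngII/PE library had 8. The Cd207 ratio after carboplatin thus depends on 1 cell, and that after PBS on few UMIs. Igha, the heavy chain of immunoglobulin A, a plasma cell product, had log2 ratios of -2.48 and -4.74.

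Other genes had a lower ratio after carboplatin. Cacna1a was at -5.20 after carboplatin and -3.11 after PBS. Stat4, a signal transducer of interleukin 12, was at 28.4 CPM and 22.1 CPM after carboplatin, and at 10.6 CPM and 32.2 CPM after PBS, log2 ratios of -0.36 and 1.60. Rnf217, a ubiquitin ligase, had ratios of 0.83 and 2.72. The DNase gene Dnase1l3 had -4.04 and -0.92, and the secreted phospholipase gene Pla2g2d -6.38 and -4.47, though both had a mean under 10 CPM in the carboplatin pair. With 1 library in each of the 4 groups these differences between contrasts could not be tested.

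**Figure D5:**
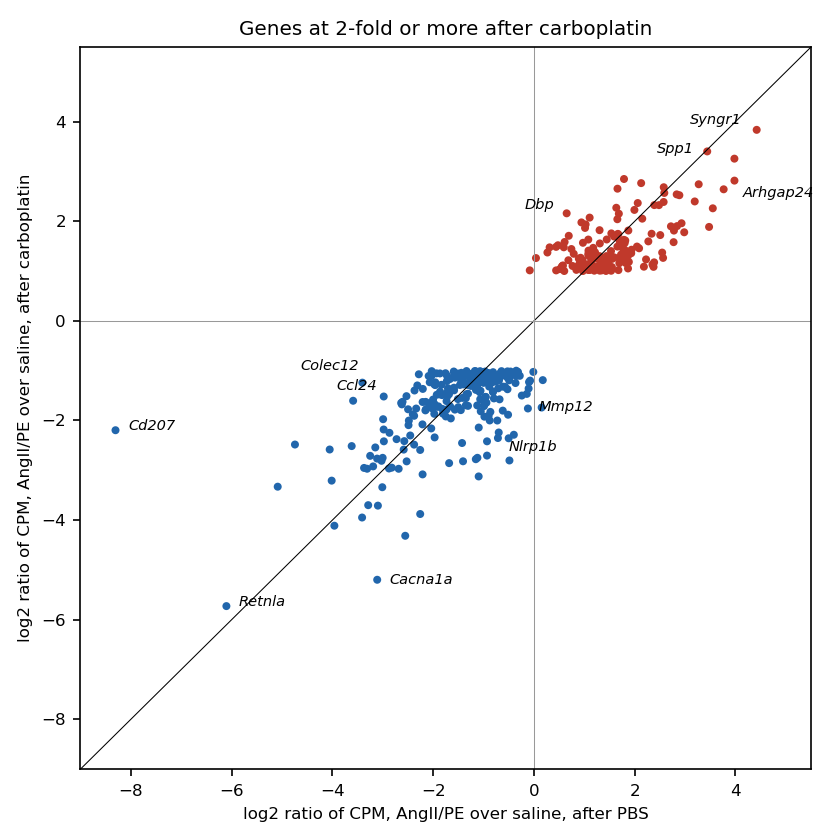
Log2 ratio of CPM, AngII/PE over saline, after PBS (x) and after carboplatin (y), for the 416 genes past 2-fold higher (red) or lower (blue) after carboplatin, with the line of equal ratios. Most points lie in the same quadrant on both axes. Cd207, at -8.30 and -2.20, lies far from the line, and 1 cell held most of its UMIs with AngII/PE after carboplatin.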

How the data were processed

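For each library the authors deposited a matrix of UMI counts for genes and barcodes, not normalised. Per the file headers, Cell Ranger 7.1.0 was used; the labels' protocols give version 3 and alignment to mm10. The sources also differ on the 3' kit (3.1 or 1) and on Seurat (3.2.3 per the labels' protocols, 4 per the submitters' processing notes). UMIs remove PCR copies. The submitters state 38066 barcodes, 17438 after filters; the files held 27968 and 17312. No doublet caller was run; results without barcodes of mixed markers or of both sexes are among the alternatives.

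UMIs were summed per library over gated cells and divided by all UMIs to give CPM. The ratio of 2 libraries carries an exact conditional binomial 95% interval; shares carry exact Clopper-Pearson 95% intervals, after thinning each cell to 2000 UMIs, which left out 247 saline and 191 AngII/PE macrophages after carboplatin. Endothelial barcodes had 10 or more endothelial marker UMIs and under 10 C1q UMIs per 10000. There were 531 with saline and 271 with AngII/PE after carboplatin, with medians of 6834 and 11050 UMIs. They gave the background, a reading that holds only for genes that endothelial cells do not make themselves. Genes below a mean of 10 CPM were left out, so the lists give only the members compared. C1q and mitochondrial genes stayed in the totals but were not counted. The script was tested on simulated data.

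The members and gene lists were chosen with earlier results of these data known. Named are the 20 highest and 20 lowest ratios, the 4 members of each list with the largest absolute log2 ratio, and the 5 genes in each direction whose log2 ratio differed most between carboplatin and PBS. C1q, mitochondrial, ribosomal protein and sex-linked genes, unnamed gene models, markers of cells other than phagocytes and genes over 5 times higher in C1q-low barcodes in both libraries were not eligible among the highest and lowest. Bank1, Cd74, Ctsf, Ctss, Cx3cr1, Gbp2, H2-Aa, Igf1, Isg15, Lamp1, Lgmn, Maf, Oas2, P2ry12, Tfeb and Tgm2 fall outside this rule and were chosen after their values were seen. Gene positions are from GENCODE M21 (8608 of 8612 genes found) and promoters from RefSeq (6939 found). Motifs were searched on both strands in the 250 bases before the start. Python 3.11.15 with numpy 2.4.6, scipy 1.17.1 and pandas 2.3.3 was used, and edgeR 4.0.16 in R 4.3.3 only for TMM factors.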

Additional observations from a re-analysis of the deposited data

Results flagged for a closer look

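Among 163 genes named or listed, 4 had ratios of AngII/PE to saline that lay in opposite directions after carboplatin and after PBS, each with an interval clear of 0; with 1 library per group none of these differences was tested. Pdgfc, a platelet-derived growth factor, had a log2 ratio of 0.78 (0.70 to 0.87) after carboplatin and -0.28 (-0.36 to -0.19) after PBS. Tfec, a relative of Tfeb, had 0.89 (0.74 to 1.05) and -0.22 (-0.36 to -0.09). Stat4 had -0.36 (-0.48 to -0.24) and 1.60 (1.44 to 1.76). Cxcl9, a chemokine that interferon gamma induces, had -0.57 (-0.66 to -0.48) and 0.48 (0.37 to 0.59).

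For 2 genes, female-called and male-called cells of the carboplatin libraries lay in opposite directions, and this difference was not tested either. Cxcl9 had 0.46 (0.32 to 0.61) in female-called cells and -2.19 (-2.36 to -2.02) in male-called cells. Plac8, a monocyte gene, had 0.35 (0.05 to 0.66) and -2.67 (-3.00 to -2.35).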

How the results depend on the processing

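No paired analysis was possible because each group has 1 library, and for the same reason no replicate could be left out. The results were recomputed under 22 settings, 18 of them planned and 4 chosen after seeing the data (without barcodes holding both Xist and Y-linked UMIs, with or without a Ccr2 UMI, and a total without the transcripts linked to ribosomal RNA). With a minimum of 50 CPM, 61 genes were at least 2-fold higher and 100 lower; with no minimum the counts were 1003 and 3309, as more genes of few counts enter. With every cell weighted the same, 384 genes were at least 2-fold lower; the cause was not tested. Under the other settings 118 to 234 were higher and 184 to 312 lower. For the 40 genes with the highest and lowest ratios, 876 of 877 values stayed at least 2-fold in the same direction; the exception was Gpnmb in cells with a Ccr2 UMI, at -0.24. Without the 1% of cells with most UMIs of a gene, 6 compared genes had no UMI left in a library and gave no value. Plac8 was at 0.35 in female-called cells, against -1.19 in all. The median ran from -1.72 to -0.91 for MHC class II, from 0.53 to 1.29 for lipid-associated, from 0.77 to 1.12 for Ms4a, from 0.52 to 0.76 for lysosomal, from -0.67 to -0.33 for resident and from -0.83 to -0.09 for alternative activation genes. The matrix list's median ran from 0.17 to 1.30. Genes near the minimum of 10 CPM have the widest counting intervals, and no setting stands in for replicate mice.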
